A study of Rattus norvegicus with 9 samples.

Results

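The genes described here are the rat genes for ribosomal RNA (rRNA) processing and for assembly of the large ribosomal subunit. A gene was taken when the deposited annotation gave it the gene ontology term for rRNA processing or the term for large-subunit biogenesis, was listed as protein-coding, and had no symbol starting with Rpl or Rps. Of 32883 genes, 101 met this rule, of which 68 carried the rRNA processing term, 39 the large-subunit term and 6 both. The group of genes was proposed with group differences of these data already in view, so the differences between groups below are descriptions of these livers and not evidence gained independently of that choice.

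Ribosomes are built in the nucleolus, where RNA polymerase I makes a long precursor rRNA that is cut, chemically modified and folded around ribosomal proteins. Small nucleolar ribonucleoproteins (snoRNPs) guide the modifications, the small-subunit processome and the large-subunit assembly factors shape each subunit, and nucleases trim the ends. Mitochondria build their own ribosomes with a separate set of factors. The cost of this work follows cell growth, and in liver it rises when hepatocytes regenerate.

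Gene expression was measured by bulk RNA sequencing in 9 livers, 3 from normal rats and 6 from rats with acute-on-chronic liver failure (ACLF). The rats were male Sprague-Dawley animals of 8 to 11 weeks, and ACLF was set up by tying the bile duct for 21 days and then giving 0.25 mg/kg lipopolysaccharide (LPS). Blood of the ACLF rats was circulated outside the body for 2 h, starting 1 h after LPS, through a circuit that held neither cells nor an apheresis column (empty group, 3 livers) or through the UTOpiA circuit (UTOpiA group, 3 livers), which joins a granulocyte and monocyte apheresis column to alginate-encapsulated human hepatocyte-like organoids derived from gene-edited induced pluripotent stem cells. The livers were taken from surviving rats 24 h after LPS, and no further treatment of the normal rats is described. The libraries were made from polyadenylated RNA, so the values are messenger RNA levels of the processing factors and not levels of rRNA or of its precursors.

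Between 14241172 and 17321677 reads were counted per library. Of these reads, 0.137% to 0.149% fell in the 101 genes in normal livers, 0.224% to 0.273% in the empty group and 0.143% to 0.225% in the UTOpiA group. All 12 hepatocyte markers were detected in every library, but their summed level was 150000 to 162000 TPM (transcript abundance per gene length and library) in normal livers, 33100 to 58800 TPM in the empty group and 38400 to 59300 TPM in the UTOpiA group. Summed neutrophil markers (10 genes, of which 6 to 8 were at 3 counts or fewer in normal livers and 2 or 3 in ACLF livers) lay at 2.89 to 6.35, 189 to 1130 and 179 to 517 TPM in the same order. Summed cholangiocyte markers (9 genes) were at 25.5 to 35.5, 344 to 713 and 149 to 463 TPM, and stellate cell and fibroblast markers (9 of 10 genes found) at 110 to 122, 867 to 1060 and 455 to 1050 TPM. Summed erythroid markers (5 of 7 genes found) lay at 95.5 to 265, 2180 to 3220 and 728 to 1190 TPM, without overlap between any of the groups. Summed macrophage markers (7 of 8 genes found) were at 219 to 256, 401 to 730 and 277 to 552 TPM, and lymphocyte markers (8 of 9) at 12.7 to 15.3, 56.2 to 94.3 and 28.2 to 92.9 TPM. Endothelial markers (7 of 8) overlapped between all groups, at 88 to 99.5, 76.6 to 149 and 83.3 to 107 TPM. Summed proliferation markers (10 genes) were at 39.2 to 65.7, 82.8 to 134 and 64.9 to 118 TPM, with a median log2 fold change in scaled counts of 1.42 in the empty group against normal livers and of 0.27 in the UTOpiA group against the empty group, where 9 of 10 lay above 0. The part of these shifts in markers in the results below was not tested. In bulk tissue, fewer cells of a type and less RNA per cell cannot be told apart.

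Of the 101 genes, 88 had enough counts to be tested. The other 13 never exceeded 13 counts in a library, and 4 of them had none. They were 8 copies of ribosomal protein genes, 2 nucleophosmin-like gene models and 3 unnamed gene models. The annotation also keeps 3 tested ribosomal protein gene copies under locus numbers, which the rule on symbols does not remove. The 88 tested genes comprised 5 snoRNP genes, 22 of small-subunit assembly, 41 of large-subunit assembly, 6 nucleases, 4 of the mitochondrial ribosome, 6 with other roles, 3 ribosomal protein gene copies and 1 nucleophosmin-like model. These roles were assigned by hand.

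The summed level of the 101 genes was higher in ACLF livers of the empty group than in normal livers, and lower again in 2 of the 3 UTOpiA livers. It was 1578.3, 1611.5 and 1513 TPM in the normal livers, 2676.7, 2584 and 2990.7 TPM in the empty group and 1969.9, 2630.7 and 1656.3 TPM in the UTOpiA group. Every liver of the empty group lay above every normal liver, and UTOpiA 2 lay within the range of the empty group while UTOpiA 1 and UTOpiA 3 lay below it. TPM values sum to the same total in each library. Albumin (Alb) alone took 13.34% to 14.91% of counts in normal livers, 1.583% to 3.907% in the empty group and 1.539% to 3.591% in the UTOpiA group. The part of this in the summed level of the 101 genes was not tested. A few abundant genes weigh on this sum. Of the difference of 1183 TPM between the group means of empty and normal livers, Npm1 made up 16.8%, the ribosomal protein gene copies 24.8% and the remaining 89 genes 58.4%.

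**Figure D1:**
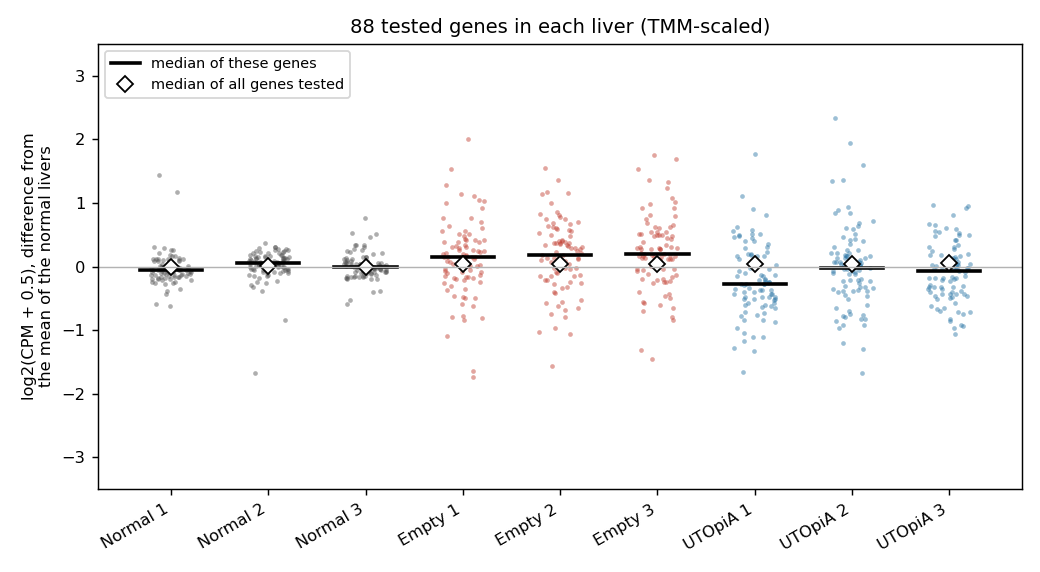
Level of the 88 tested genes in each of the 9 livers, as the difference in log2(CPM + 0.5) from the mean of the normal livers after TMM scaling (y axis), with 1 point per gene, a black line at their median and a diamond at the median of all 14089 genes tested. The medians lie at 0.14, 0.18 and 0.20 in the empty group and at -0.27, -0.03 and -0.08 in the UTOpiA group.

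Per gene the shift was smaller, and its size depended on the scale. In counts scaled by TMM (trimmed mean of M values, which sets the bulk of genes equal between libraries), the median of the 88 genes lay 0.14, 0.18 and 0.20 log2 units above the mean of the normal livers in the 3 livers of the empty group. In the UTOpiA group it lay at -0.27, -0.03 and -0.08. Medians of all genes tested stayed between 0.03 and 0.06 in these 6 livers. On the deposited TPM the empty livers lay at 0.49, 0.61 and 0.77 and the UTOpiA livers at 0.06, 0.49 and -0.06, but there the median of all genes also moved, to 0.37, 0.43 and 0.53 in the empty group and to 0.31, 0.50 and 0.06 in the UTOpiA group. Fold changes below are from TMM-scaled counts, and levels of single genes are TPM.

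The first comparison set the empty group against normal livers. It sets rats with ACLF that also underwent the circuit, without the cells and the column, against normal rats for which no circuit is described. The parts of ACLF and of the circuit procedure cannot be told apart here. Over the 88 genes the log2 fold change had a median of 0.18, against 0.04 for all genes tested, with 59 genes above 0, where 52% of all genes lay, and 29 below, where 48% lay. On the TPM scale, where the median of all genes tested was 0.44, 78 of the 86 tested genes with a mean of at least 1 TPM lay above 0 and 8 below. A gene was called when its fold change exceeded 2 and its adjusted p (Benjamini-Hochberg) in edgeR's quasi-likelihood test was under 0.05. By this rule 4 genes were called higher, where 20.7% of all genes were, and 2 were called lower, where 11.1% of all genes were. By adjusted p alone, 18 were higher and 9 lower, against 26.9% and 21.5% of all genes. The 3 empty and 3 normal livers did not overlap in 29 genes that were higher and 12 that were lower, and over all genes these shares were 32.4% and 28.8%. In TPM 62 were higher and 4 lower without overlap, against 53.4% and 12.8% of all genes. By edgeR the shares of the 88 genes called were below those of all genes in both directions. DESeq2 also called 4 higher and 2 lower, where it called 19.6% and 10.1% of all genes. A stricter filter of at least 10 counts in every library gave 6 and 2, against 14.5% and 10.4%. On log2(TPM + 1), on log2(TPM + 0.1) and on log2(TPM + 1) without a filter, limma called 18, 19 and 16 genes higher, where it called 24%, 27.5% and 16% of all genes, and 1 lower each, against 5.18%, 5.62% and 3.42%.

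The genes called higher included factors of different steps. Npm1 encodes nucleophosmin, the abundant nucleolar chaperone of ribosome assembly, and lies on chromosome 10 at 18080950 to 18090950, minus strand (rn6 per the labels). Its level was 92.1, 101 and 101 TPM in normal livers, 294, 276 and 320 TPM in the empty group and 177, 281 and 144 TPM in the UTOpiA group. Every ACLF liver lay above every normal liver, and UTOpiA 2 again lay within the range of the empty group. The log2 fold change of the empty group was 1.08 ± 0.17 (SE), with an adjusted p of 0.000919 by edgeR. The annotation holds 3 nucleophosmin-like gene models, so some reads of Npm1 could be assigned elsewhere.

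Rrp1b encodes a nucleolar protein of large-subunit processing. It was at 2.72, 2.86 and 3.14 TPM in normal livers and at 8.2, 12.4 and 13.4 TPM in the empty group, without overlap, with a log2 fold change of 1.43 ± 0.26 (SE; edgeR adjusted p = 0.00197). Its relative Rrp1 had a log2 fold change of 0.16 ± 0.13 (SE) and an adjusted p of 0.318 by edgeR, and is named here after its value was seen.

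Pih1d2, a PIH1-domain protein annotated with snoRNP assembly, had the highest fold change of the group. It was at 1.15, 1.26 and 1.25 TPM in normal livers, at 6.15, 5.66 and 8.4 TPM in the empty group and at 2.28, 7.23 and 2 TPM in the UTOpiA group. The log2 fold change of the empty group was 1.93 ± 0.42 (SE; edgeR adjusted p = 0.00481). Its better known relative Pih1d1, a subunit of the R2TP chaperone complex and also chosen after its value was seen, had a log2 fold change of -0.09 ± 0.20 (SE) and an adjusted p of 0.737 by edgeR.

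Among genes higher without overlap but under 2-fold, Nop53, which brings the exosome to the large-subunit precursor, had 26.5, 25.9 and 27.6 TPM in normal livers and 74.5, 65.1 and 81.9 TPM in the empty group. Its log2 fold change was 0.95 ± 0.14 (SE; edgeR adjusted p = 0.000584). Rrp9, a protein of the U3 snoRNP, had a log2 fold change of 0.92 ± 0.23, and Cinp, a partner of the AFG2 ATPases that recycle assembly factors, one of 0.86 ± 0.16. Rpf2, which with Rrs1 places the 5S RNA on the large subunit, was at 0.76 ± 0.17, Pes1 of the PeBoW complex at 0.68 ± 0.16 and Nip7 at 0.60 ± 0.21. The adjusted p of these 5 genes by edgeR lay between 0.00236 and 0.0379. LOC100365810, annotated as a copy of the small-subunit protein S17, was at 0.87 ± 0.22 and may share reads with its parent gene.

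The genes called lower were both of the mitochondrial ribosome. Rbfa, a maturation factor of the small mitochondrial subunit, was at 38.9, 42.9 and 40.4 TPM in normal livers, 16, 19 and 25.1 TPM in the empty group and 28.7, 18.7 and 19.5 TPM in the UTOpiA group. The ACLF livers lay below the normal livers in both groups. The log2 fold change of the empty group was -1.55 ± 0.21 (SE; edgeR adjusted p = 0.0005).

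Malsu1, an assembly factor of the large mitochondrial subunit, was at 39.8, 60.8 and 40.9 TPM in normal livers and at 28.7, 31.1 and 25.2 TPM in the empty group. Its log2 fold change was -1.24 ± 0.23 (SE; edgeR adjusted p = 0.0019). In TPM its fold was under 2, with a log2 fold change of -0.69 and an adjusted p of 0.0117 by limma, where the adjusted p over all alternatives ran from 1.1e-05 to 0.0183. Mterf4, which brings a methyltransferase to mitochondrial rRNA, was at 24.1, 25.7 and 25.7 TPM in normal livers and at 22.4, 17.8 and 22 TPM in the empty group, with a log2 fold change of -0.80 ± 0.20. The fourth mitochondrial gene, Ybey, was at -0.43 ± 0.31 and its groups overlapped.

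Factors of mitochondrial rRNA outside the 101 genes lay lower as well. From a written list of mitochondrial rRNA processing, modification and assembly genes, which also holds some mitochondrial ribosomal proteins, 30 were tested. Of these, 29 had a log2 fold change below 0, and the median was -0.67. By edgeR 5 were called lower and 0 higher, where 11.1% and 20.7% of all genes were, and at an unadjusted p under 0.05 there were 23 lower and 1 higher, against 25.2% and 30.3%. By adjusted p alone 20 were lower, against 21.5% of all genes. Mrps9, a protein of the small mitochondrial subunit, had the lowest value at -1.34 ± 0.13 (SE; edgeR adjusted p = 9.59e-05). Tfb1m, the dimethyltransferase of mitochondrial small-subunit rRNA, was at -1.09 ± 0.18 (SE; edgeR adjusted p = 0.00122). In TPM 20 of the 30 genes lay below 0 and 10 above, with a median of -0.15. Mrps9 and Tfb1m were chosen after their values were seen. Of the 12 hepatocyte markers, 5 were called lower and 1 higher in the same comparison, and their part in the lower values of mitochondrial factors was not tested.

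Lower values were also found among a few genes outside the mitochondrial ribosome, but most of these depended on the scale. Heatr3, which accompanies the ribosomal protein Rpl5 to the nucleus, had a log2 fold change of -0.80 ± 0.21, from 9.89, 11.7 and 9.05 TPM in normal livers to 7.79, 8.78 and 8.57 TPM in the empty group. Rrs1 was at -0.80 ± 0.17, Lyar at -0.75 ± 0.20, Imp4 of the small-subunit processome at -0.68 ± 0.13 and Wdr18 of the PELP1 complex at -0.65 ± 0.20. The adjusted p of these 5 genes by edgeR lay between 0.00232 and 0.0232, and their groups did not overlap in TMM-scaled counts. In TPM, Heatr3 again did not overlap, whereas Rrs1, Lyar, Imp4 and Wdr18 of the 2 groups did. Rrs1 was at 26.2, 21.8 and 21.7 TPM in normal livers and at 20.2, 15.4 and 21.9 TPM in the empty group. Bop1, also of PeBoW, was at -0.45 ± 0.19 in TMM-scaled counts and at 0.08 on the TPM scale, and Mphosph10 of the processome was at -0.02 ± 0.18 and at 0.46.

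**Figure D2:**
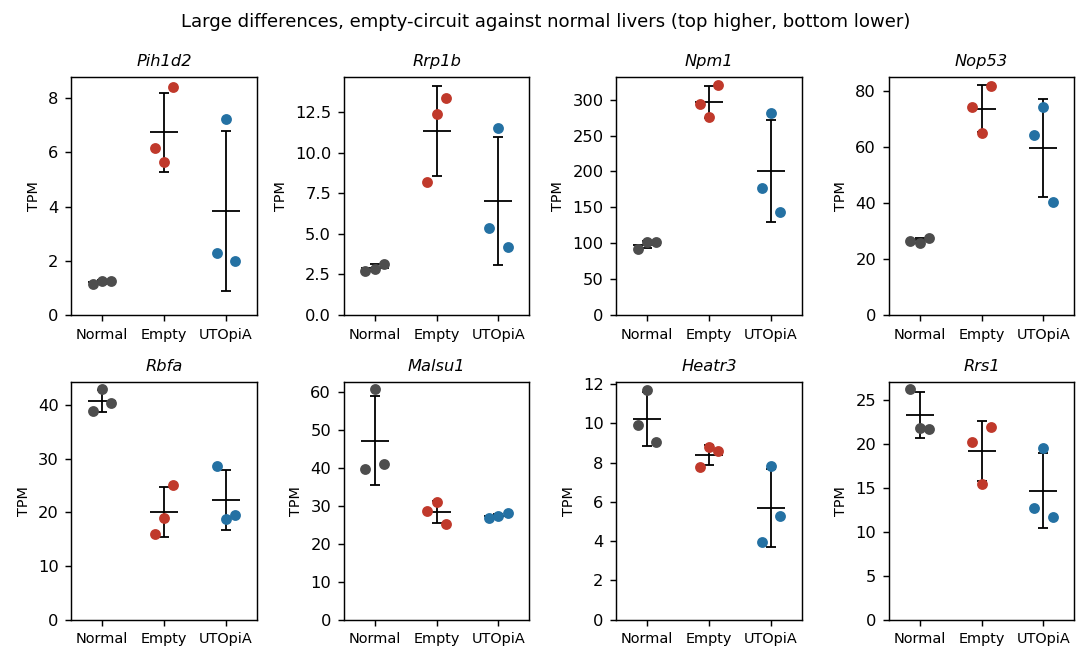
TPM (y axis) of 4 of the genes with the highest and of the 4 with the lowest log2 fold change of the empty group against normal livers, among genes whose livers did not overlap in TMM-scaled counts. Each point is 1 of 3 livers per group, in the order 1 to 3, and the bars show mean and SD. The normal livers of Npm1 lie at 92.1 to 101 TPM and the empty group at 276 to 320 TPM.

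The second comparison set the UTOpiA group against the empty group, the contrast of the full circuit with the circuit alone. Most of the genes lay lower in the UTOpiA group, but no gene passed the test by edgeR. Of the 88 genes, 73 had a log2 fold change below 0, where 49.8% of all genes did, 15 lay above 0, against 50.2%, and the median was -0.28, against 0.00 for all genes tested. By edgeR 0 genes were called in either direction, where 0% of all 14089 genes were. At an unadjusted p under 0.05 there were 23 lower genes and 0 higher, and over all genes these shares were 4.56% and 5.77%. The 3 UTOpiA livers did not overlap the 3 empty livers in 30 genes, all lower, where 5.97% of all genes were lower and 6.15% higher without overlap. On the TPM scale, where the median of all genes tested was -0.17, 82 of 86 genes lay below 0, and 25 of the 88 lay lower without overlap and 0 higher, against 8.62% and 2.43% of all genes. The median of these genes minus that of all genes tested was -0.26 to -0.29 under TMM, median-of-ratios and TPM scaling. This comparison and the first share the 3 livers of the empty group, so a high value in those livers enters both with opposite sign.

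DESeq2 called 2 genes lower, Rrp12 and Naf1, where it called 0.511% of all genes lower, and 0 higher, where it called 0.352%. By limma on the 3 TPM settings 0 of these genes were called, where 0% of all genes were called lower in each and 0%, 0% and 0.00493% higher. Rrp12 encodes a HEAT-repeat protein of late small-subunit maturation and export and lies on chromosome 1 at 261106760 to 261140389, minus strand (rn6 per the labels). It was at 4.59, 4.67 and 4.48 TPM in normal livers, 5.28, 9.22 and 10.1 TPM in the empty group and 2.3, 3.88 and 2.47 TPM in the UTOpiA group. Every UTOpiA liver lay below every liver of the other 2 groups. The log2 fold change against the empty group was -1.31 ± 0.23 (SE) with an adjusted p of 0.177 by edgeR, the smallest among these genes, and -1.33 ± 0.27 with 0.000494 by DESeq2. Over 18 alternatives its adjusted p ran from 0.000494 to 0.61.

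Naf1 encodes the factor that loads H/ACA snoRNPs before Gar1 takes its place. It was at 1.41, 1.01 and 0.972 TPM in normal livers, 1.68, 2.45 and 2.13 TPM in the empty group and 0.65, 1.24 and 0.711 TPM in the UTOpiA group. In TPM the UTOpiA livers lay below the empty group and overlapped the normal livers, whereas in TMM-scaled counts they lay below the normal livers too, at 1.95, 3.18 and 2.71 CPM against 5.42, 3.8 and 3.77 CPM. Against the empty group the log2 fold change was -1.09 ± 0.28 (SE) with an adjusted p of 0.321 by edgeR, and the adjusted p of 0.0401 by DESeq2 was the lowest of 18 alternatives, which reached 0.816. Gar1 itself was at 8.06, 9.34 and 10.7 TPM in the empty group and 4.44, 8.37 and 4.94 TPM in the UTOpiA group, with a log2 fold change of -0.48 ± 0.23.

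The other genes with low values and no overlap spanned both subunits. Ddx21, a nucleolar RNA helicase, was at 14.9, 20.6 and 14.4 TPM in normal livers, 27.6, 35.4 and 31.1 TPM in the empty group and 12.7, 25.1 and 12.3 TPM in the UTOpiA group, with a log2 fold change of -0.75 ± 0.21 between UTOpiA and empty livers. Nle1, whose protein is pulled off the large-subunit precursor by the Mdn1 ATPase, was at 6.59, 8.56 and 7.96 TPM in the empty group and 4.01, 4.15 and 4.03 TPM in the UTOpiA group, with a log2 fold change of -0.70 ± 0.24. In TPM the 3 UTOpiA livers lay close together in Nle1, whereas UTOpiA 2 lay above the others in Ddx21. In TMM-scaled CPM Nle1 was at 3.84, 3.38 and 4.89 in the UTOpiA livers, with UTOpiA 2 the lowest.

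Rrp9 of the U3 snoRNP was at 13, 14.2 and 17.7 TPM in the empty group and 5.6, 11.2 and 7.49 TPM in the UTOpiA group, with a log2 fold change of -0.69 ± 0.23. Sdad1, a factor of large-subunit export, was at 7.5, 8.48 and 9.21 TPM and 4.15, 6.76 and 3.38 TPM, at -0.65 ± 0.19. Bop1 was at 17, 16.8 and 23 TPM and 8.78, 14.8 and 9.15 TPM, at -0.60 ± 0.19. The adjusted p of these 5 genes by edgeR lay between 0.346 and 0.395.

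The lowest fold change of all belonged to a gene of few reads. Nol8, a nucleolar protein of large-subunit maturation, is listed under 2 gene identifiers on chromosome 17, so its reads may be split. The copy at 14565794 to 14589154 (rn6 per the labels) had 35, 61 and 81 counts in the empty group and 5, 8 and 22 counts in the UTOpiA group, with a log2 fold change of -1.94 ± 0.69 (edgeR adjusted p = 0.408). The copy at 15405860 to 15429322 had 21, 18 and 14 counts and 5, 19 and 4 counts, and its groups overlapped.

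**Figure D3:**
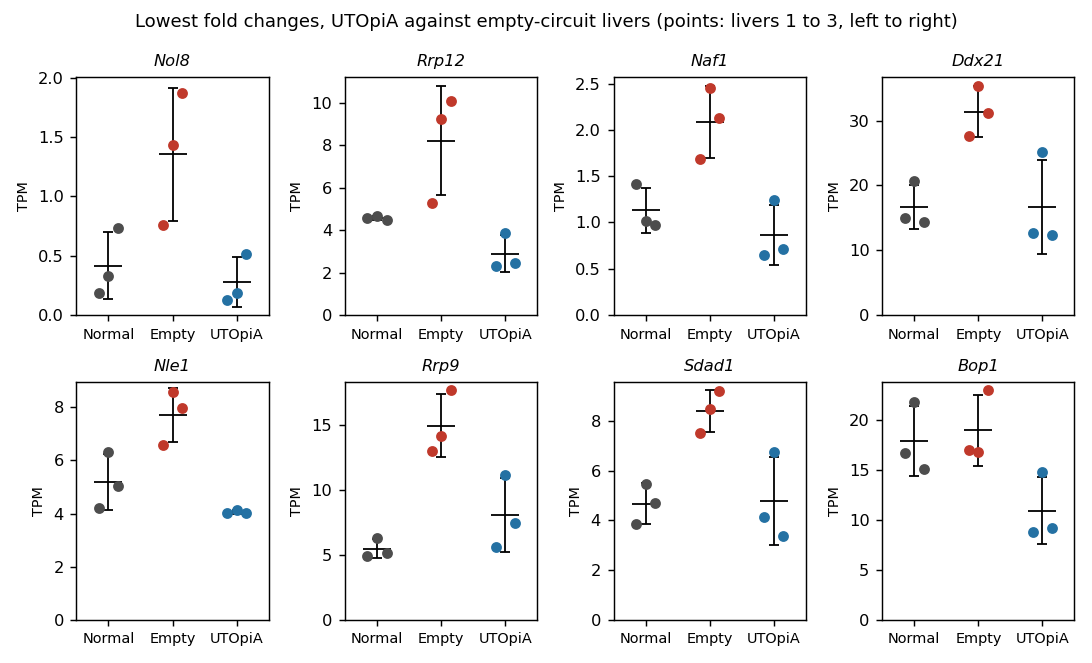
TPM (y axis) of the 8 genes with the lowest log2 fold change of the UTOpiA group against the empty group, among genes whose livers did not overlap. Each point is 1 of 3 livers per group, in the order 1 to 3, and the bars show mean and SD. Rrp12 lies at 5.28 to 10.1 TPM in the empty group and at 2.3 to 3.88 TPM in the UTOpiA group.

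Further core genes had smaller differences. Utp20 of the processome had a log2 fold change of -0.56 ± 0.18 without overlap, Rpf2 of -0.51 ± 0.16 without overlap and Npm1 of -0.40 ± 0.17 without overlap, all in TMM-scaled counts. In TPM, Rpf2 again did not overlap, whereas Utp20 and Npm1 did, through UTOpiA 2 at 5.04 and 281 TPM. Pes1 was at -0.34 ± 0.16, Nip7 at -0.28 ± 0.21, Rrs1 at -0.21 ± 0.17 and Mphosph10 at -0.12 ± 0.18, all with overlap. Nvl, an AAA ATPase that releases factors from the large subunit, was at 0.03 ± 0.19. Their adjusted p by edgeR lay between 0.389 and 0.972.

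Single livers shaped this pattern unevenly. UTOpiA 1 lay below all 3 livers of the empty group in 58 of the 88 genes, where it did so in 27.5% of all genes. UTOpiA 2 did so in 47 genes (20.4% of all genes) and UTOpiA 3 in 55 (29.4%). In TPM the counts were 65, 31 and 79, where 39.3%, 15.1% and 64.4% of all genes lay below the empty group in UTOpiA 1, UTOpiA 2 and UTOpiA 3. UTOpiA 2 was therefore the least shifted liver on either scale. Its summed neutrophil, cholangiocyte and stellate cell markers, at 517, 463 and 1050 TPM, were the highest of the UTOpiA group and its hepatocyte markers, at 38400 TPM, the lowest. Its erythroid markers, at 728 TPM, were also the lowest of the UTOpiA group, and unlike the other lists named here the erythroid list separated the UTOpiA from the empty livers. The part of all these in the result was not tested. Without UTOpiA 2 the median log2 fold change was -0.33, and without UTOpiA 1 or UTOpiA 3 it was -0.26 and -0.25.

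Of the 41 large-subunit genes, 34 were above 0 in the empty group against normal livers, with a median of 0.32, and 38 were below 0 in the UTOpiA group against the empty group, with a median of -0.35. The 22 small-subunit genes had medians of 0.14 and -0.29, with 13 above 0 and 18 below 0, and the 5 snoRNP genes medians of 0.36 and -0.69. In TPM the medians were 0.69 and -0.47 for 39 large-subunit genes, 0.61 and -0.46 for the small-subunit genes and 0.77 and -0.73 for the snoRNP genes, so the large-subunit and small-subunit genes lay closer together there. The 6 nucleases were at 0.00 and -0.07, and at 0.49 and -0.24 on the TPM scale. The 4 mitochondrial genes ran the other way, with a median of -1.02 and all 4 below 0 in the first comparison, and 0.24 and all 4 above 0 in the second, where none was without overlap. On the TPM scale the mitochondrial medians were -0.48 and 0.01, with 3 of 4 below 0 and 2 of 4 above 0.

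**Figure D4:**
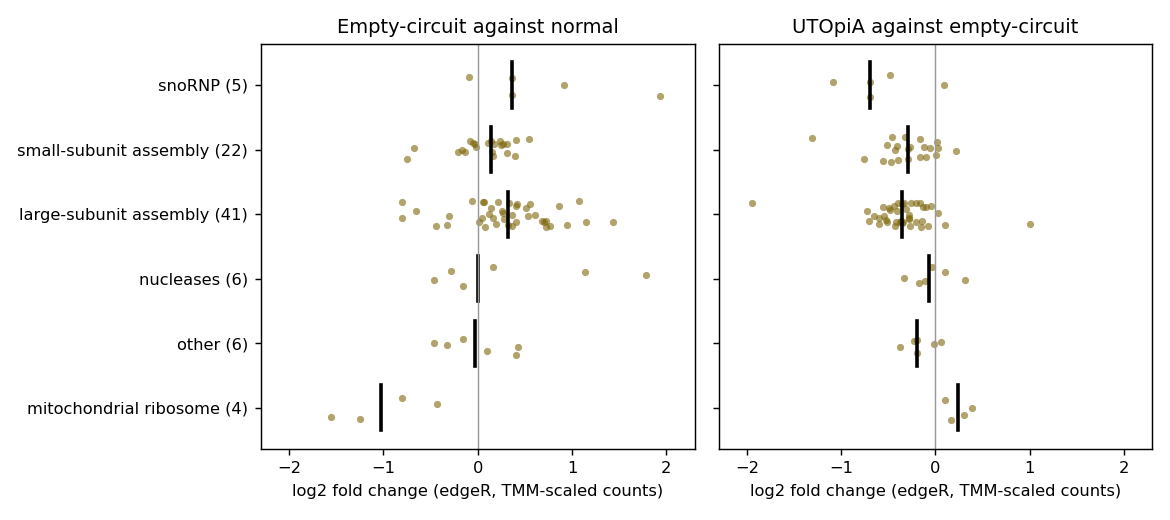
Log2 fold change from edgeR on TMM-scaled counts (x axis) of tested genes grouped by role (y axis, number of genes in brackets), for the empty group against normal livers (left) and the UTOpiA group against the empty group (right). Points are genes and black lines medians. The large-subunit median is at 0.32 on the left and -0.35 on the right, and the mitochondrial median at -1.02 and 0.24.

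A few genes stood apart from their role in the spread between livers. These were chosen after their values were seen. Ebna1bp2, a large-subunit factor, ranged from 0.272 to 5.29 TPM in normal livers, from 0.386 to 9.34 TPM in the empty group and from 4.43 to 18.9 TPM in the UTOpiA group. Its log2 fold change against the empty group was 1.00 with an SE of 1.02. LOC100911372, a gene model annotated with the small ribosomal subunit, was at 106 TPM in Normal 1 and at 21.4 and 25 TPM in the other normal livers.

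The third comparison set the UTOpiA group against normal livers. Here genes lay on both sides of 0. The median log2 fold change was -0.16, against 0.05 for all genes, with 58 genes below 0, where 47.3% of all genes lay, and 30 above, where 52.7% lay. By edgeR 3 genes were called higher, where 18.2% of all genes were, among them Pih1d2 and Rpp25, a subunit of RNase MRP that was chosen after its values were seen. Rpp25 had 9, 8 and 18 counts in normal livers and 40, 62 and 30 in the UTOpiA group. The 6 called lower, where 6.81% of all genes were, were Bop1, Heatr3, Malsu1, Rbfa, Rrp12 and Rrs1. By adjusted p alone 11 were higher and 12 lower, against 23.3% and 16.2% of all genes, and the groups did not overlap in 15 genes that were higher and 26 that were lower, against 30.8% and 26.1%. In TPM 23 were higher and 10 lower without overlap, against 39% and 13.4%. DESeq2 called 3 higher and 6 lower, where it called 17.7% and 6.73% of all genes, and with at least 10 counts in every library edgeR called 2 and 2, against 12.2% and 6.18%. With the 3 TPM settings in the order above, limma called 3, 5 and 2 higher, against 16.3%, 20.1% and 9.88% of all genes, and 0 lower, against 3.63%, 3.94% and 2.33%. On the TPM scale the median was positive, at 0.14, with 55 of 86 genes above 0 and a median of all genes tested of 0.28, so the sign of this shift depends on the scale, while the distance from the median of all genes was -0.14 to -0.21 under TMM, median-of-ratios and TPM scaling.

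Beyond the 101 genes, lists written for the same pathway gave the setting. The deposited annotation gives neither of the 2 terms to many known factors that are in the table, such as fibrillarin (Fbl), nucleolin (Ncl) and Nop56. From the written lists, 126 tested factors of the nucleolus, nucleus and cytoplasm were not among the 101 genes. In the UTOpiA group against the empty group 110 of them were below 0, with a median of -0.26, 0 were called by edgeR, and at an unadjusted p under 0.05 there were 27 lower and 2 higher, where 4.56% and 5.77% of all genes were. In the empty group against normal livers 4 were called higher and 2 lower, where 20.7% and 11.1% of all genes were, with a median of 0.06 and 72 above 0. On the TPM scale the medians were 0.53 for the empty group against normal livers, with 117 above 0, and -0.41 for the UTOpiA group against the empty group, with 119 below 0. Further written lists outside the 101 genes were small. In the UTOpiA group against the empty group, MYC and its partners had a median of -0.02, with 6 of 11 below 0. Nuclear export of pre-ribosomes was at -0.13 (10 of 14 below 0). The 5S particle and p53 surveillance were at -0.17 (6 of 9), and snoRNA host genes at -0.14 (4 of 4).

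Of 20 tested genes of RNA polymerase I transcription, 14 were below 0 in the UTOpiA group against the empty group, with a median of -0.28 and 0 called by edgeR, and at an unadjusted p under 0.05 there were 7 lower and 0 higher, against 4.56% and 5.77% of all genes. In the empty group against normal livers 16 were above 0, with a median of 0.14. In TPM 20 of 20 were below 0 in the first of these comparisons, with a median of -0.44, and 19 of 20 above 0 in the second, with a median of 0.62. Polr1b, the second largest subunit, was at 7.42, 7.94 and 7.33 TPM in the empty group and 5.28, 6.72 and 3.66 TPM in the UTOpiA group, with a log2 fold change of -0.37 ± 0.15. Polr1a was at -0.29 ± 0.14, while the activator Ubtf was at 0.12 ± 0.12 and the initiation factor Rrn3 at 0.05 ± 0.18.

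Ribosomal protein genes make up the other large class of the pathway. They were taken by symbol, as protein-coding genes starting with Rpl or Rps. A symbol alone does not exclude genes named after a ribosomal protein, such as the S6 kinases (Rps6k symbols). The values below are those of the symbol list. Of 97 tested, 8 were called higher and 2 lower in the empty group against normal livers, where 20.7% and 11.1% of all genes were. By adjusted p alone 44 were higher and 5 lower, against 26.9% and 21.5% of all genes, and their median was 0.54. In the UTOpiA group against the empty group the median was -0.06, 65 were below 0 and 0 were called by edgeR, with 2 lower and 2 higher at an unadjusted p under 0.05, against 4.56% and 5.77% of all genes. Over the 96 genes on the TPM scale, the medians were 1.02 and -0.24, with 91 above 0 and 88 below 0. Rpl5 was at 368, 388 and 384 TPM in normal livers, 872, 704 and 927 TPM in the empty group and 574, 893 and 506 TPM in the UTOpiA group. Its log2 fold changes in the 2 comparisons were 0.61 ± 0.19 and -0.17 ± 0.19, and those of Rpl11, its partner in the 5S particle, 0.55 ± 0.19 and -0.06 ± 0.19. The difference in size between these gene lists was not tested.

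**Figure D5:**
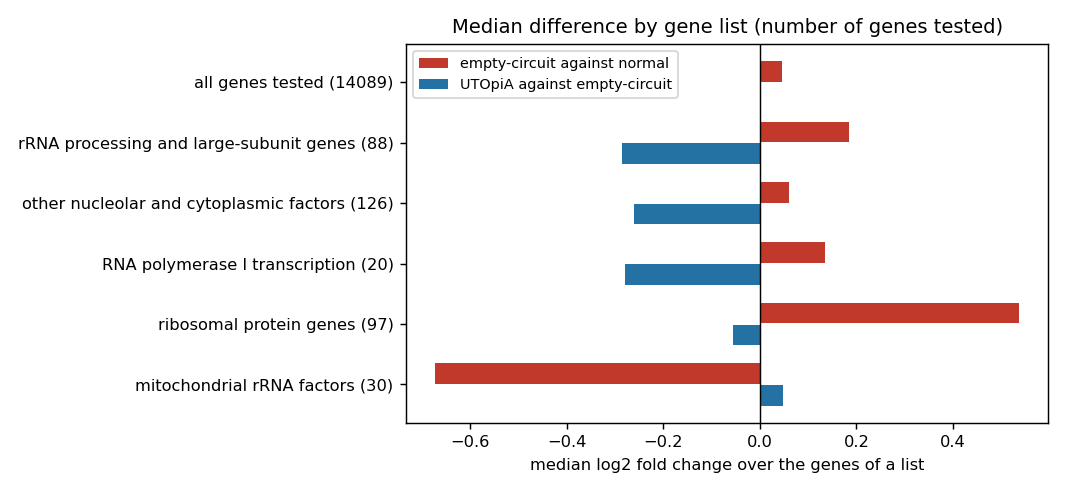
Median log2 fold change (x axis) over the tested genes of 6 lists (y axis, number of genes in brackets), for the empty group against normal livers (red) and the UTOpiA group against the empty group (blue). The processing genes lie at 0.18 and -0.28. The ribosomal protein genes, taken by symbol (Rpl or Rps), lie at 0.54 and -0.06 (1.02 and -0.24 on the TPM scale). The mitochondrial rRNA factors, which include some mitochondrial ribosomal proteins, lie at -0.67 and 0.05, the second of which is -0.15 on the TPM scale.

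Myc, the transcription factor best known for driving ribosome production, varied widely between livers. It was at 14.9, 5.55 and 3.23 TPM in normal livers, 15.4, 88.4 and 24.5 TPM in the empty group and 12.8, 20.2 and 6.25 TPM in the UTOpiA group. In TPM every liver of the empty group lay above every normal liver, by a narrow margin between Empty 1 and Normal 1, whereas in TMM-scaled counts these groups overlapped. The UTOpiA group overlapped both. The log2 fold changes were 1.92 ± 0.75 for the empty group against normal livers (edgeR adjusted p = 0.0609, with 0.0112 by DESeq2, which called it higher, and 0.0112 to 0.298 over 18 alternatives) and -1.59 ± 0.73 for the UTOpiA group against the empty group (edgeR adjusted p = 0.501).

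Cdkn1a encodes p21, a cell cycle inhibitor that p53 switches on when ribosome assembly is disturbed, among many other signals. It was at 3.2, 1.51 and 2.44 TPM in normal livers, 20.5, 45.3 and 45 TPM in the empty group and 11.6, 18 and 23.5 TPM in the UTOpiA group. The empty group was higher than normal livers by 3.41 ± 0.46 on the log2 scale (edgeR adjusted p = 0.000583). Against the empty group the UTOpiA group was at -0.78 ± 0.41, with overlap.

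Promoter sequences of the RefSeq annotation (GRCr8) were found for 77 of the 101 genes, all matched by gene identifier, and the 2 Nol8 entries share 1 promoter. Each window runs from 250 bases before the annotated start to 50 bases after it. The E-box CACGTG, the letters that MYC and its relatives bind, was present in 15 of the 76 windows (19.7%), against 9.19% of the promoters of tested genes and 6.42% of all 33469 promoters. The letters CCGGAA, the core bound by ETS factors, were present on either strand in 45 windows (59.2%), against 26.9% and 15%. Among promoters of tested genes with Rpl or Rps symbols the share was 44%. The GC box GGGCGG (56.6%, 60.3% and 33.1%) and CCAAT (30.3%, 37.8% and 37.5%) were searched in the same way on both strands. A match describes the letters and not a bound site, and CACGTG reads the same on both strands.

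The 100 bases before the start are given for genes described above, to show where these letters lie. Naf1, Ddx21, Nol8 and Nle1 are among the lowest in the UTOpiA group, Pes1 and Rpf2 are core genes higher in the empty group, and Malsu1 is a mitochondrial factor that was lower there. Capitals mark CACGTG and CCGGAA or its reverse complement TTCCGG. All are written 5′ to 3′ along the gene.
Naf1 (chr16:27634964-27635063, minus strand): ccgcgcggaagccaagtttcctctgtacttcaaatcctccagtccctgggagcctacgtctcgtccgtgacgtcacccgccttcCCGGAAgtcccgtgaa
Ddx21 (chr20:31097239-31097338, minus strand): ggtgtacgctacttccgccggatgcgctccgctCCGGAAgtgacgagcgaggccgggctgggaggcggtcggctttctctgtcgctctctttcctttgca
Nol8 (chr17:15220203-15220302, minus strand): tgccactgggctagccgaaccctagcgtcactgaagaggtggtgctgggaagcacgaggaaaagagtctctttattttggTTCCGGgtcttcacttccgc
Nle1 (chr10:68340181-68340280, minus strand): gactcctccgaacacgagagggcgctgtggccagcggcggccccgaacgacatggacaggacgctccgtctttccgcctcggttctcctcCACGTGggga
Pes1 (chr14:83074246-83074345, plus strand): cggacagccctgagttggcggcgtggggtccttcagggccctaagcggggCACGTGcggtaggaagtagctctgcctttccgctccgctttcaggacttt
Rpf2 (chr20:45205984-45206083, minus strand): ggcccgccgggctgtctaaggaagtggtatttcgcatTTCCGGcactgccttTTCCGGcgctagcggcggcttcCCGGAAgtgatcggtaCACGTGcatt
Malsu1 (chr4:79381863-79381962, plus strand): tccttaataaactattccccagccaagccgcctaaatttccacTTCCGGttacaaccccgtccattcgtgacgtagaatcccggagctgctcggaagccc

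In Rpf2 a CACGTG starts 10 bases before the annotated start, behind 3 copies of the ETS core. In Nle1 it starts 10 bases before the start and in Pes1 50 bases before it. Rrp12 carries a CACGTG from position 4 after the start, which is not shown. The 15 tested genes with CACGTG had a median log2 fold change of -0.41 in the UTOpiA group against the empty group, and the 59 with a promoter but without these letters -0.27. For CCGGAA, counting both Nol8 entries, the medians were -0.28 with (46 genes) and -0.34 without (28 genes). In each of these sets most genes lay below 0, namely 11 of 15, 49 of 59, 35 of 46 and 25 of 28. These differences between sets were not tested.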

How the data were processed

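Liver RNA of 9 rats (3 normal, 3 empty, 3 UTOpiA, as the labels give them) was sequenced from poly(A)-selected libraries. The authors deposited read counts per gene, made with HISAT2 and featureCounts, and TPM values, which they derived from gene length and which sum to the same total in each library. The labels name Trimmomatic, rn6 and NEBNext kits, whereas the study's methods name Cutadapt, a mouse build and another kit, and the strand setting of counting is not given in the sources used here. The genes listed are rat Ensembl genes.

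Counts were filtered with filterByExpr (14089 genes kept), scaled by TMM and tested in 1 fit of all 9 libraries with edgeR's quasi-likelihood test (edgeR 4.0.16, limma 3.58.1, R 4.3.3). P-values were adjusted over the whole table (Benjamini-Hochberg), and calls needed an adjusted p under 0.05 with a fold change above 2. Groups were said not to overlap when all 3 values of one exceeded all 3 of the other in TMM-scaled counts. DESeq2 1.42.0, median-of-ratios scaling, other count filters, limma on log2(TPM + 1) and log2(TPM + 0.1), fits of 6 libraries, a replicate block and leaving out each library were alternatives. The fits were tested on simulated data.

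Named genes were up to 8 per direction and comparison with the largest fold change among non-overlapping genes with a mean of at least 1 CPM, plus core genes of the pathway, Myc, Polr1a, Polr1b, Ubtf, Rrn3, Rpl5, Rpl11, Cdkn1a and Gas5, of which Gas5 was not in the table. Of the genes called higher, 1 is counted but not reported here by name. The genes, lists and tests were chosen with earlier results of these data known, and roles were assigned after values were seen. Replicate numbers did not pair the libraries, so the main fit has no block. The labels call the samples biological replicates, and p-values measure the spread between these libraries. Promoters came from RefSeq (GRCr8), a different build from the counts, and were matched by gene identifier. Depth was 14241172 to 17321677 counts per library.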

Additional observations from a re-analysis of the deposited data

How the results depend on the processing

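The median of the tested genes in the UTOpiA group against the empty group stayed below 0 in every alternative, from -0.33 to -0.25 when 1 library was left out and at -0.43, -0.47 and -0.39 with limma on log2(TPM + 1), log2(TPM + 0.1) and log2(TPM + 1) without a filter. The limma medians here cover the genes of the 101 that passed limma's own filter, 88 in the first 2 settings and 97 without a filter, and so differ slightly from TPM-scale medians over the 86 genes that also passed the count filter. DESeq2 called 2 genes lower there, and leaving out any library gave 0 calls by edgeR, where 0% to 0.153% of all genes were called lower and 0% to 0.223% higher. For the empty group against normal livers the median was 0.26 with at least 10 counts in every library, 0.62, 0.69 and 0.60 with the 3 limma settings in the same order, and 0.15 to 0.22 without 1 library. The limma settings called 18, 19 and 16 genes higher and 1 lower each, adjusted p alone gave 18 and 9, and leaving out 1 library 4 to 6 and 2, where 18.3% to 20.6% and 9.35% to 12.3% of all genes were called.

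For the UTOpiA group against normal livers the limma settings turned the median positive, at 0.15, 0.15 and 0.14, called 0 genes lower each, and 5 higher on log2(TPM + 0.1). Adjusted p alone gave 11 higher and 12 lower, and at least 10 counts in every library 2 lower. Without 1 library the median ran from -0.24 to -0.10, the genes called higher from 1 to 3 (1 without Normal 1, Normal 2, Empty 1 or UTOpiA 2) and those called lower from 2 to 7 (2 without UTOpiA 1), where 14.6% to 18.8% of all genes were called higher and 5.06% to 7.63% lower (6.71% without UTOpiA 1). Single genes also changed sign. In the UTOpiA group against the empty group Nvl was at -0.13, -0.16 and -0.13 with the limma settings, and -0.10 (without Empty 1) to 0.11 without 1 library, with -0.0006 without UTOpiA 1, and Mphosph10 ran from -0.28 to 0.042 (without Empty 2). In the empty group against normal livers Bop1 was at 0.077, 0.081 and 0.077 with the limma settings, and Mphosph10 at 0.46, 0.48 and 0.46, at 0.078 with at least 10 counts, and from -0.19 to 0.057 without 1 library (above 0 without Normal 2, Empty 1 or Empty 3). TPM scaling shifts all genes between groups, which is part of these changes by construction, and other causes were not tested.

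With the replicate number as a block, 5 genes were called higher and 2 lower in the empty group against normal livers (19.5% and 10.9% of all genes; median 0.17), 0 in the UTOpiA group against the empty group (0% of all genes; median -0.28), and 2 and 6 in the UTOpiA group against normal livers (16.6% and 6.37%; median -0.16). Deviations of same-numbered libraries correlated from -0.18 to 0.06, and 1 of 9 libraries correlated best with its own number. Leaving out the ribosomal protein gene copies, chosen after seeing the data, gave medians of 0.17, -0.29 and -0.16 in the 3 comparisons. With 3 livers per group, genes such as Nol8, with 5 to 81 counts, were measured with wide errors.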
